A study of Mus musculus with 4 samples.

Results

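The levels of 10 genes for natural killer (NK) cell receptors were followed through the NK cells, type 1 innate lymphoid cells (ILC1), NKT cells and CD8 T cells of mouse liver. They were Klrb1a, Klrb1b and Klrb1c of the NKR-P1 family, Klrc1, Klrd1 and Klrk1 of the CD94/NKG2 family, Klre1 and Klri2, the kinase-like receptor Styk1, and the natural cytotoxicity receptor Ncr1. They were taken by symbol, and these 10 of the 32344 listed genes were each present as 1 entry. Cells were barcodes with at least 500 unique molecular identifiers (UMIs), and they were gated on raw UMIs of Cd3e, Cd8a, Zbtb16, Eomes and Cxcr6, none of which is a receptor described here. NK cells had no Cd3e, Cd8a, Zbtb16 or Cxcr6 UMI and at least 1 Eomes UMI. The ILC1 gate had no Cd3e, Cd8a, Zbtb16 or Eomes UMI and at least 1 Cxcr6 UMI. NKT cells had Cd3e and Zbtb16 UMIs without Cd8a, and CD8 T cells had Cd3e and Cd8a UMIs without Zbtb16.

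The study profiled CD45+ immune cells of liver in 4 single-cell libraries by probe hybridisation to fixed RNA, each library pooling 5 mice, and all mice had received tamoxifen for 1 week. The groups were wild type (WT, 2 libraries), the genotype labelled GS(+/delta)Hep (1 library) and the genotype labelled URI(+/delta)Hep (1 library). GS stands for glutamine synthetase in the series title, and both genotypes are written with 1 deleted allele and the suffix Hep. The Cre driver, strain, sex and age are not given in the sources used here. The WT mice shared the tamoxifen with the deleted mice. A pool hides the spread between mice, and each deleted genotype rests on a single pool. Libraries held 24041049 to 51920505 UMIs and 7453 to 9096 cells, with median depths of 2659 UMIs per cell in WT replicate 2, 3763 in WT replicate 1, 4448 for GS and 4973 for URI. No cell barcode was shared between libraries.

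NK receptors let lymphocytes weigh activating against inhibitory signals from the cells they touch. Most are C-type lectin-like proteins encoded side by side in the NK gene complex. Activating members signal through adaptors with tyrosine motifs, such as Fcer1g, Tyrobp and Hcst, while inhibitory members carry such a motif in their own tail and recruit phosphatases. Liver is rich in NK cells, tissue-resident ILC1 and NKT cells, which share several of these receptors. In the mm10 coordinates of the GENCODE annotation, 9 of the 10 genes lie on chromosome 6, from Klrb1a at chr6:128609227-128623533 to Styk1 at chr6:131299142-131353597, and Ncr1 lies at chr7:4337724-4345164. All are annotated as protein coding. The transcripts of Klrb1a and Klrb1c were 91.3% identical over 780 aligned bases, those of Klrb1b and Klrb1c 87.5%, those of Klrc1 and Klrc3 94.7% and those of Klri2 and Klri1 95.9%. Probe sequences were not used here, so the division of UMIs between these copies is uncertain.

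The gates were compared with cell type markers before the receptors were read. The NK gate held 407 to 569 cells per library, the NKT gate 559 to 954 and the CD8 T gate 626 to 1858. A list of 8 NK markers, among them Prf1, Gzma and Itga2, summed to 11306 to 17379 CPM (UMIs per 1000000 UMIs of that gate and library) in the NK gate, to 3883 to 5667 CPM in the ILC1 gate and to 5548 to 6323 CPM in CD8 T cells. A list of 8 ILC1 markers, among them Itga1 and Tnfsf10, summed to 1844 to 3070 CPM in the ILC1 gate and to 170 to 231 CPM in the NK gate, but also to 2865 to 3404 CPM in NKT cells and 1947 to 2301 CPM in CD8 T cells. The sum of that list therefore set the ILC1 gate apart from NK cells and not from the T cell gates, and its single genes differed. Cd200r1 was at 109 to 182 CPM in the ILC1 gate, 15 to 25.6 in NKT cells and 8.71 to 13.5 in CD8 T cells. Inpp4b, Ltb and Rora were lower in the ILC1 gate than in NKT cells in each library. A list of 7 NKT markers, most of them general T cell genes, summed to 3226 to 5475 CPM in NKT cells and 3269 to 5511 CPM in CD8 T cells. The sum did not separate them. Of its genes, Il4 was at 121 to 159 CPM in NKT cells and 0.756 to 2.9 CPM in CD8 T cells. Izumo1r and Icos were also higher in NKT cells in each library, while Cd3d was lower in each. The ILC1 gate was small, at 76 to 112 cells, and did not hold ILC1 alone. Between 35.5% and 50% of its cells per library carried a Cd79a UMI or at least 5 S100a8 UMIs, B cell and neutrophil genes. There, 4 neutrophil markers summed to 11550 to 20387 CPM, 5 B cell markers to 821 to 1210 CPM and 6 CD8 T markers to 802 to 1379 CPM, with no gene of these lists at 0 in all libraries. In the NK gate the same lists summed to 636 to 3031, 108 to 440 and 275 to 309 CPM. Values of the ILC1 gate therefore describe that gate and not pure ILC1. In the NKT gate, 5 gamma-delta T cell genes summed to 318 to 959 CPM, against 75.7 to 181 CPM in the CD8 T gate. Summed levels fall alike with fewer expressing cells and with less RNA per cell, and these cannot be told apart in a sum.

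Mean levels were highest in NK cells for 9 of the 10 receptor genes and in the ILC1 gate for Klrb1b, and their fall towards T cells differed by gene. After each cell was thinned to 1000 UMIs, the median NK cell had UMIs of 5 of the 10 genes for WT replicate 1 and GS, of 4 for URI and of 3 for WT replicate 2. The share of NK cells with no UMI of any of the 10 was 1.49% for WT replicate 1, 8.79% for WT replicate 2, 6.33% for URI and 3.67% for GS. For NKT cells that share was 31.9% to 63.5%, for CD8 T cells 66% to 78.8%, and for B cells, which should lack these receptors, 94.9% to 97.1%. The median share of cells with a UMI of a receptor, over the 10 genes and 4 libraries, was 36% in NK cells, 16.4% in the ILC1 gate, 6.88% in NKT cells, 1.65% in CD8 T cells and 0.702% in B cells. Without thinning the same medians were 64.1%, 23.7%, 16.6%, 4.73% and 1.83%.

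**Figure D1:**
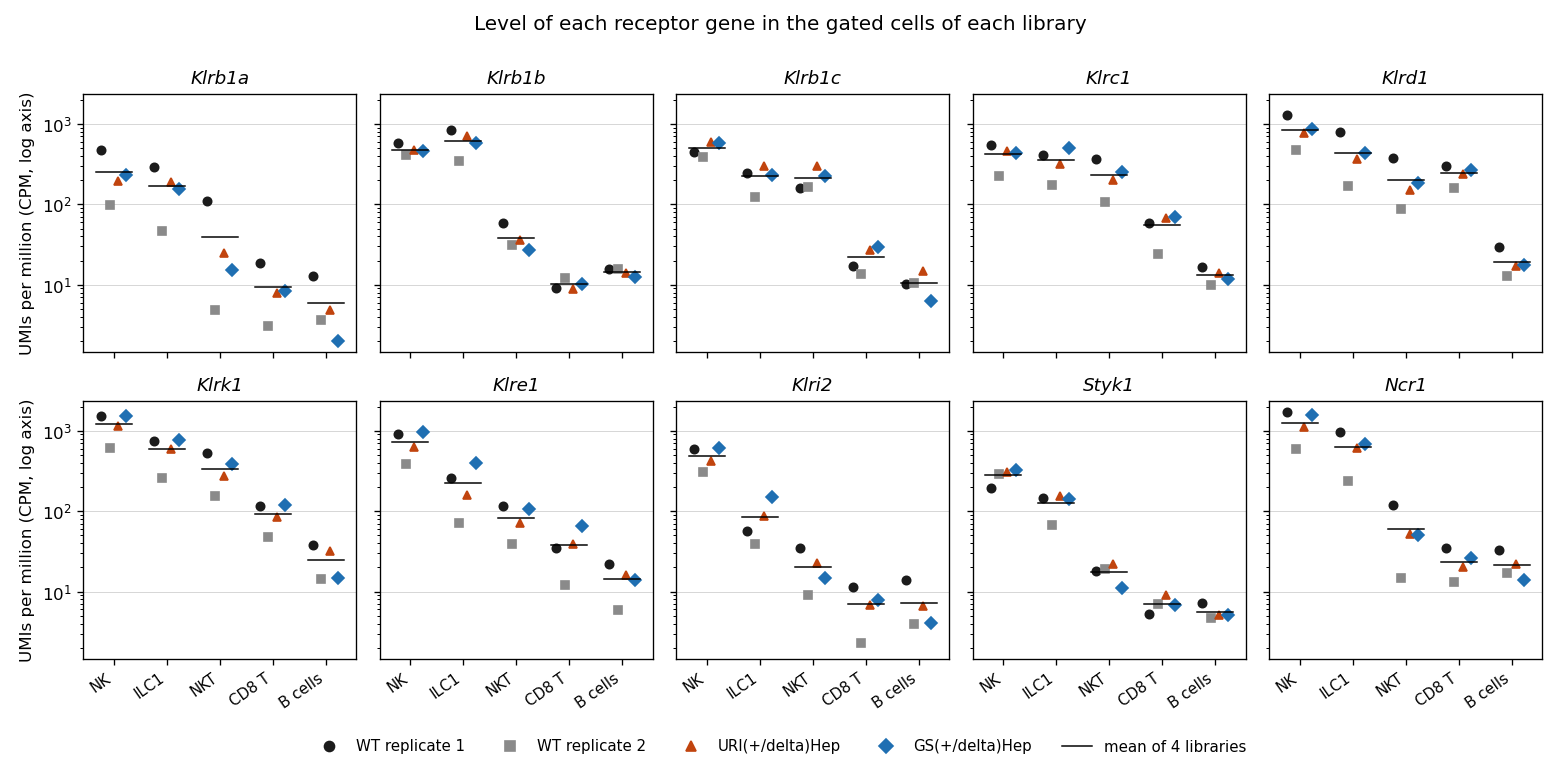
Level of each receptor gene in CPM on a log axis, by gate, with 1 point per library and a line at the mean of the 4 libraries. B cells show the background level, and WT replicate 2 (grey squares) is the lowest point of most panels.

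Windows before the RefSeq start sites are shown for 5 receptors that illustrate different distributions over the gates, 3 with high NK and ILC1 levels and low T cell levels (Klrb1a, Klrb1b, Ncr1) and 2 that NKT cells also carried (Klrc1, Klrk1). They were read from GRCm38.p6, the assembly also called mm10, and run 5′ to 3′ on the gene's strand. Capitals mark ACCACA or TGTGGT (a core of RUNX binding motifs), TCACAC or GTGTGA (T-box) and AGGAAG or CTTCCT (ETS), searched on both strands. The positions are chr6:128622935-128623184 (minus strand) for Klrb1a, chr6:128826332-128826565 (minus) for Klrb1b, chr7:4337465-4337714 (plus) for Ncr1, chr6:129678974-129679223 (minus) for Klrc1 and chr6:129623865-129624114 (minus) for Klrk1. For Klrb1b, 16 bases that GENCODE places in an exon were left off.
Klrb1a: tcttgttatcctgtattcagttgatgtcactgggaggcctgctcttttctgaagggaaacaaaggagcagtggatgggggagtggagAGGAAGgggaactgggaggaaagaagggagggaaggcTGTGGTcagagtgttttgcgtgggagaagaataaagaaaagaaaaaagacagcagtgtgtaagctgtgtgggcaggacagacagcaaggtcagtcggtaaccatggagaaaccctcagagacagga
Klrb1b: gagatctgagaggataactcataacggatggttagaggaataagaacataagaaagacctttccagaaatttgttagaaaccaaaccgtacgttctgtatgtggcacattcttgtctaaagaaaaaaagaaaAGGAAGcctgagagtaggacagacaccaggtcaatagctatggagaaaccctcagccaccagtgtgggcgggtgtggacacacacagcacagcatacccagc
Ncr1: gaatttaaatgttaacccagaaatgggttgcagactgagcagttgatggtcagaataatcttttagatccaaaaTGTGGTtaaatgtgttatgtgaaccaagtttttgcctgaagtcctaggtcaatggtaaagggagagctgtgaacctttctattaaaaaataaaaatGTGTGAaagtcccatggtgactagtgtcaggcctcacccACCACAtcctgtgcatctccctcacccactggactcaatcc
Klrc1: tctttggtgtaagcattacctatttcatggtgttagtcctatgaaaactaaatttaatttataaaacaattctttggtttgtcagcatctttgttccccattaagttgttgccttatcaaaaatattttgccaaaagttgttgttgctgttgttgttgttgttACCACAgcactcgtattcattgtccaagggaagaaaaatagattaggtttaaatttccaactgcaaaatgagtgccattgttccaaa
Klrk1: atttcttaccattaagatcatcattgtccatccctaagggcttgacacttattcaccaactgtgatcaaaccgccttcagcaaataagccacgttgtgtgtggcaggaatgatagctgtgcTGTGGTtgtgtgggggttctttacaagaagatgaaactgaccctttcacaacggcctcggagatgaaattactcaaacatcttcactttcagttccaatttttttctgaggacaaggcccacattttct
RUNX letters stood in 6 of the 7 receptor windows in the promoter table, the exception being Klrb1b, and in 14.2% of all 27025 windows of 250 bases. ETS letters stood in 3 of 7 (29.2% of all windows), and T-box letters in 1 of 7, Ncr1 (12.2% of all windows). GENCODE places the starts of Klrb1a, Klrb1c and Klre1 further upstream, so these 3 windows lie inside the GENCODE genes, that of Klre1 wholly in exon. Of the other 4 windows (Klrb1b, Klrc1, Klrk1, Ncr1), 3 held RUNX letters. The windows of Klrb1a, Klrb1b and Klrb1c belong to related genes and are not independent. A match of 6 letters describes the sequence and shows no binding. Klrd1, Klri2 and Styk1 had no entry in that table.

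The 3 NKR-P1 genes had 3 different distributions. Klrb1b encodes an inhibitory receptor whose ligand is the Clec2d product, and it was the receptor with a mean in the ILC1 gate above that in NK cells. In NK cells Klrb1b stood at 574 CPM in WT replicate 1, 413 in WT replicate 2, 474 in the URI library and 459 in the GS library, and in the ILC1 gate at 851, 344, 709 and 579 CPM. The ILC1 gate was thus higher in 3 of 4 libraries, and the gates overlapped. Klrb1b fell to 38.4 ± 13.9 CPM in NKT cells and 10.2 ± 1.58 CPM in CD8 T cells (SD, n = 4), the latter below the B cell range of 12.6 to 15.9 CPM. Its CD8 T signal is read as background.

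Klrb1c encodes the activating NKR-P1C receptor, the antigen recognised in C57BL/6 mice by the classical anti-NK antibody, a textbook marker of NK and NKT cells. In NK cells its level was 454 CPM in WT replicate 1, 391 in WT replicate 2, 595 in the URI library and 575 in the GS library. NKT cells had 158, 165, 298 and 224 CPM in the same order, and the ILC1 gate 243, 125, 304 and 234 CPM. NK cells were above both in every library, while the NKT and ILC1 gates overlapped. CD8 T cells had 21.9 ± 7.78 CPM, against 10.5 ± 3.51 CPM in B cells (SD, n = 4).

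Klrb1a encodes another activating NKR-P1 receptor. It reached 478 CPM in NK cells of WT replicate 1, 98.3 in WT replicate 2, 196 in the URI library and 235 in the GS library. The ILC1 gate had 295, 46.9, 188 and 158 CPM, and NKT cells 110, 4.87, 25.2 and 15.4 CPM. Klrb1a therefore varied more between libraries than its NK and ILC1 gates differed, and in NKT cells 1 library, WT replicate 1, carried most of the signal.

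Klrd1 encodes CD94, the partner chain of the NKG2 receptors, and Klrc1 encodes NKG2A, whose pair with CD94 is an inhibitory receptor for Qa-1. Klrd1 was the receptor that CD8 T cells kept best. Its level was 1291 CPM in NK cells of WT replicate 1, 472 in WT replicate 2, 774 in the URI library and 873 in the GS library. In CD8 T cells it was 302, 160, 239 and 270 CPM, and in NKT cells 375, 86.5, 151 and 185 CPM. CD8 T cells were above NKT cells in 3 of 4 libraries, WT replicate 1 being the exception, and far above the 13 to 29.2 CPM of B cells. In thinned cells, 15.4% to 23.6% of CD8 T cells and 0.576% to 1.12% of B cells had a Klrd1 UMI.

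Klrc1 was close to level over the NK and ILC1 gates. NK cells had 549 CPM in WT replicate 1, 227 in WT replicate 2, 456 in the URI library and 441 in the GS library, and the ILC1 gate had 417, 176, 317 and 506 CPM. NKT cells kept 372, 107, 199 and 252 CPM. In CD8 T cells Klrc1 stood at 55.2 ± 21.3 CPM, against 13.2 ± 2.94 CPM in B cells (SD, n = 4).

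Klrk1 encodes NKG2D, an activating receptor for stress-induced ligands of the Raet1, H60 and Ulbp1 type, which signals through Hcst (DAP10). Its NK level was 1507 CPM in WT replicate 1, 613 in WT replicate 2, 1144 in the URI library and 1526 in the GS library. The ILC1 gate had 743, 262, 598 and 771 CPM, NKT cells 523, 154, 272 and 382 CPM, and CD8 T cells 115, 47.7, 85.1 and 120 CPM. Within every library the order was NK, ILC1, NKT, CD8 T, while across libraries only the CD8 T range stood clear of the range above it. B cells had 24.6 ± 12 CPM (SD, n = 4).

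Klre1 and Klri2 encode lectin-like receptors that pair with one another. Klre1 was at 924 CPM in NK cells of WT replicate 1, 391 in WT replicate 2, 636 in the URI library and 957 in the GS library, and in the ILC1 gate at 261, 70.4, 159 and 400 CPM. Klri2 was at 599, 305, 425 and 605 CPM in NK cells and at 56.4, 39.1, 87.3 and 152 CPM in the ILC1 gate. The NK and ILC1 ranges of Klri2 did not overlap. In NKT cells Klre1 had 83.2 ± 35 CPM and Klri2 20.3 ± 11.3 CPM (SD, n = 4). For Klri2, CD8 T cells, at 7.06 ± 3.69 CPM, matched B cells, at 7.17 ± 4.72 CPM, and are read as background.

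Styk1 encodes a receptor with a kinase-like domain, and Ncr1 encodes NKp46, an activating receptor that signals through Fcer1g and Cd247. Styk1 was at 195 CPM in NK cells of WT replicate 1, 288 in WT replicate 2, 311 in the URI library and 324 in the GS library, so that WT replicate 1 was the lowest. In the ILC1 gate it was at 148, 66.5, 153 and 140 CPM, and in NKT cells at 17.6 ± 4.78 CPM (SD, n = 4). Its ranges in the 4 gates did not overlap. Ncr1 was at 1700 CPM in NK cells of WT replicate 1, 594 in WT replicate 2, 1099 in the URI library and 1582 in the GS library. The ILC1 gate had 973, 234, 616 and 693 CPM. NKT cells fell to 121, 14.6, 52.5 and 51.3 CPM, and CD8 T cells, at 23.6 ± 9.36 CPM, lay within the B cell level of 21.4 ± 8.29 CPM (SD, n = 4).

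The comparison of gates asked which receptors separate the 4 lymphocyte types, and it used edgeR's quasi-likelihood test on UMIs summed per library and gate, with the library as a block. A receptor is called at a Benjamini-Hochberg adjusted p under 0.05 over all 10294 genes tested in that contrast, and all 10 receptors were among the genes tested. Differences are on the log2 scale with their standard error (SE), and p-values in these paragraphs come from edgeR. With the block, the p-values measure how the gate differences varied among these 4 libraries. They do not measure the spread of levels between libraries, and nothing says that pools were drawn independently.

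NK cells exceeded the ILC1 gate for 7 of 10 receptors, with 26.3% of all genes called (11.9% higher). Klri2 had the widest gap, 2.49 (SE 0.23, adjusted p = 1.9e-07), followed by Klre1 at 1.80 (SE 0.18), both higher in 4 of 4 libraries. Klrb1c, Styk1, Klrk1, Ncr1 and Klrd1 were higher by 1.05 to 1.22. Klrb1a (0.57, SE 0.28, adjusted p = 0.14), Klrc1 (0.30, SE 0.16, adjusted p = 0.21) and Klrb1b (-0.31, SE 0.14, adjusted p = 0.12) did not pass. Klrb1b was sensitive to what the ILC1 gate held. Without cells that had a Cd79a UMI or at least 5 S100a8 UMIs its difference was -0.70 (edgeR adjusted p = 0.0015), and with every gate gene required at 2 UMIs it was -1.03 (edgeR adjusted p = 2e-05). When the gates were set on thinned cells it was 1.56 (edgeR adjusted p = 2.7e-08), the opposite direction. Ncr1 (0.33, edgeR adjusted p = 0.36) and Klrd1 (0.48, edgeR adjusted p = 0.057) were no longer called at 2 UMIs. Without the library block, 4 receptors were called, and 1880 of all genes.

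NK cells exceeded NKT cells for all 10 receptors, with 46.3% of all genes called (22.7% higher), and each was higher in 4 of 4 libraries. Differences ran from 0.98 for Klrc1 (SE 0.13, adjusted p = 3.9e-06) and 1.36 for Klrb1c (SE 0.10) to 4.12 for Styk1, 4.59 for Ncr1 and 4.69 for Klri2 (SE 0.18, adjusted p = 8e-14). The median was 3.14, against -0.01 over all genes tested. Against CD8 T cells all 10 were again higher, with 53.5% of all genes called (25.4% higher), from 1.85 for Klrd1 (SE 0.13, adjusted p = 5.3e-10) to 6.12 for Klri2, with a median of 4.73. The T cell levels of Klri2, Styk1, Ncr1, Klrb1a and Klrb1b in this contrast were at or near those of B cells.

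The ILC1 gate exceeded NKT cells for 9 of 10 receptors, with 19.2% of all genes called (11.2% higher). Klrb1b led at 4.10 (SE 0.17, adjusted p = 2.1e-11), and Ncr1 followed at 3.52 (SE 0.17). Klrb1c did not pass, at 0.14 (SE 0.14, adjusted p = 0.53). With gates on thinned cells 5 receptors were called, and calls over all genes fell from 1976 of 10294 to 431 of 9574. Klrk1 (0.35, edgeR adjusted p = 0.25), Klrc1 (0.48), Klrb1a (0.87) and Klri2 (0.95) were then not called. With Cd3d, Cd3g and Trac also at 0 in the ILC1 gate, Klre1 (0.63, edgeR adjusted p = 0.2) and Klri2 (0.99, edgeR adjusted p = 0.29) were not called. Klrc1 was also not called without the GS library (0.51, edgeR adjusted p = 0.084). Without the library block, 4 receptors were called in this contrast, and 1172 of all genes. Against CD8 T cells the ILC1 gate was higher for all 10, with 35.1% of all genes called (18.5% higher), from 0.80 for Klrd1 (SE 0.16, adjusted p = 0.00058) to 6.07 for Klrb1b (SE 0.19). The Klrd1 difference was 0.25 (edgeR adjusted p = 0.41) when Cd3d, Cd3g and Trac had also to be at 0 in the NK and ILC1 gates, and 0.13 (edgeR adjusted p = 0.56) with gates on thinned cells.

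NKT cells exceeded CD8 T cells for 9 receptors and were lower for Klrd1, with 44.3% of all genes called (21.9% higher and 22.3% lower). Klrb1c was the receptor with the widest gap, 3.24 (SE 0.11, adjusted p = 5e-14), followed by Klrc1 at 2.02 (SE 0.14) and Klrb1b at 1.97 (SE 0.19). The Klrd1 difference was -0.42 (SE 0.13, adjusted p = 0.013), with NKT cells lower in 3 of 4 libraries. It was not called without the GS library (-0.39, edgeR adjusted p = 0.073), without the URI library (-0.35, edgeR adjusted p = 0.085) or without WT replicate 2 (-0.31, edgeR adjusted p = 0.09). Ncr1 was at 0.46 (edgeR adjusted p = 0.34) with gates on thinned cells, and 6 receptors were called without the library block, with 2175 of all genes. Without the library block Klrd1 was at -0.30 (edgeR adjusted p = 0.69), and in WT replicate 1 NKT cells were the higher. NKG2D (Klrk1) was higher in NKT cells by 1.82 (SE 0.10).

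**Figure D2:**
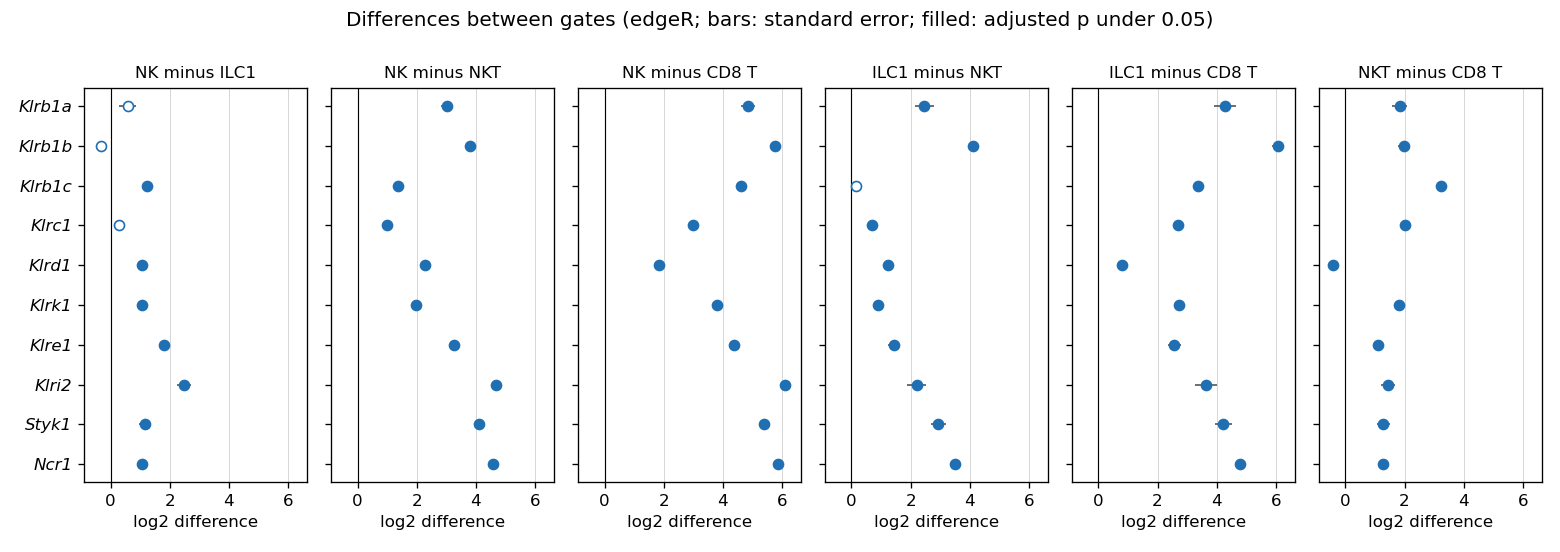
Log2 difference of each receptor between each pair of gates, from edgeR, with bars for the standard error and filled points for an adjusted p under 0.05. All points lie right of 0 in the NK minus NKT and NK minus CD8 T panels, and Klrd1 alone lies left of 0 in the NKT minus CD8 T panel.

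Adaptors and signalling molecules of these receptors followed the same contrasts unevenly. The list held 13 genes, of which 12 were tested. Between NK and NKT cells 8 were higher, 2 lower and 2 not called, with a median of 0.30, where 46.3% of all genes were called (22.7% higher). Tyrobp, the adaptor of many activating receptors, was higher by 3.41 (SE 0.15), and Fcer1g, the adaptor of Ncr1 and Klrb1c, by 3.25 (SE 0.15). Hcst, the adaptor of Klrk1, was at -0.12 (SE 0.06, adjusted p = 0.097) and Cd247, the zeta chain shared with the T cell receptor, at 0.17 (SE 0.07, adjusted p = 0.069). Hcst was at 182 to 225 CPM in NK cells, 207 to 254 in NKT cells and 188 to 221 in CD8 T cells, ranges that overlapped while Klrk1 fell. Between NK cells and the ILC1 gate 7 list genes were higher, 2 lower and 3 not called, where 26.3% of all genes were called (11.9% higher). Sh2d1a, the signalling adaptor of SLAM receptors, was higher in NK cells by 2.63 (SE 0.21), Cd247 by 1.41 (SE 0.12) and Hcst by 0.59 (SE 0.09). Sh2d1b1, a relative of Sh2d1a, was higher in NK cells than in CD8 T cells by 5.82 (SE 0.15). Syk, a kinase that binds activated Fcer1g and Tyrobp, was higher in the ILC1 gate than in NKT cells by 2.08 (SE 0.13) and than in CD8 T cells by 2.52 (SE 0.13). Scaled within each gate, it was at 486 to 818 CPM in the ILC1 gate and 546 to 760 CPM in NK cells. The part of cells with B cell or neutrophil UMIs in the Syk level of the ILC1 gate was not tested.

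Other receptors of the NK gene complex and beyond were followed as a list of 16, of which 13 were tested between gates. Against CD8 T cells, 8 were higher in NK cells, 4 lower and 1 not called, with a median of 3.43. Over all genes, 53.5% were called there (25.4% higher). Klrc2 and Klrc3, the activating relatives of Klrc1, were higher in NK cells than in CD8 T cells by 3.66 (SE 0.15) and 3.93 (SE 0.14). Cd226, an activating receptor for nectin family ligands, went the other way. It was lower in NK cells than in the ILC1 gate (-1.77, SE 0.16) and than in NKT cells (-2.80, SE 0.11). Cd244a, a SLAM family receptor, was higher in NK cells than in NKT cells by 3.25 (SE 0.17). Of 10 ligand genes, 4 were tested, and none was higher in NK cells than in NKT cells, where 2 were lower and 2 not called. With 46.3% of all genes called in that contrast (22.7% higher), a count over 4 genes does not set the ligands apart.

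Partner chains were detected together in NK cells about as often as their separate shares give. In thinned NK cells, Klrd1 and Klrc1 were both seen in 19.2% of cells in WT replicate 1, 7.36% in WT replicate 2, 14.9% in the URI library and 16.2% in the GS library. The products of the 2 shares were 20.3%, 6.85%, 13.4% and 14%. Klre1 with Klri2 gave 24.1%, 7.36%, 15.5% and 28.5%, against products of 24.4%, 7.26%, 12.9% and 24.9%. In NKT cells Klrd1 with Klrc1 was seen in 9.46%, 1.01%, 2.88% and 3.44% of cells, above the products of 6.01%, 0.613%, 1.51% and 2.85%, on 6 to 51 cells per library. Klre1 with Klri2 was also above its product in each library, on 1 to 6 cells. Ncr1 with Fcer1g was seen in 3.34%, 0.673%, 1.49% and 2.55% of NKT cells, against 1.26%, 0.0964%, 0.381% and 0.681%. The Ncr1 and Fcer1g pair rests on 4 to 23 cells per library, and no test was made across cells. Klrd1 with Klrk1, a pair outside the planned partner pairs, was also above its product in NKT cells. It was seen in 12.8%, 1.52%, 4.58% and 5.65% of cells, against 8.46%, 0.919%, 2.03% and 4.34%. In CD8 T cells Ncr1 with Fcer1g was above its product in each library, on 3 to 16 cells. The excess was therefore particular neither to partner chains nor to NKT cells.

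CD8 T cells were then split by Eomes, a transcription factor of NK and memory T cells, and by Cxcr6, a chemokine receptor of tissue-resident T cells. Eomes-positive cells numbered 81 to 417 per library, and Cxcr6-positive cells 92 to 595. Klrk1 was at 194 CPM in Eomes-positive cells of WT replicate 1, 77 in WT replicate 2, 144 in the URI library and 173 in the GS library. Eomes-negative cells had 84.1, 41.7, 59.5 and 101 CPM. Klrc1 was at 97.9, 43, 141 and 96.2 CPM in Eomes-positive cells and at 42.9, 20.4, 37.1 and 59.8 CPM in Eomes-negative cells. Both were higher with Eomes in 4 of 4 libraries, although the ranges of the pooled libraries overlapped. Klrd1 hardly differed, at 266 ± 65.4 CPM with Eomes and 235 ± 58 CPM without (SD, n = 4).

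All 10 receptors were called higher in Eomes-positive CD8 T cells, with 10.3% of 9862 genes called (5.9% higher). Klrk1 was higher by 1.08 (SE 0.09, adjusted p = 2.2e-06), Klrc1 by 1.28 (SE 0.15, adjusted p = 9e-05), Klre1 by 1.08 (SE 0.16) and Klrd1 by 0.17 (SE 0.05, adjusted p = 0.046). Klri2, Ncr1, Klrb1b and Styk1 differed by 1.66 to 2.05, from levels at or under background in Eomes-negative cells. With the highest-scoring 5% of barcodes removed as doublets 4 receptors were called, while 1092 of 9666 genes were, and Klrb1a (0.26), Klrb1b (1.09), Klrb1c (0.40), Klrd1 (0.15), Klri2 (1.05) and Styk1 (1.33) were not. There were 6 calls without WT replicate 1, with 564 of 9802 genes called, and 6 without the URI library, with 531 of 9787. The Klrd1 call held in 3 of 12 alternatives. Without the library block 1 receptor was called, and 106 of all genes.

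Cxcr6-positive CD8 T cells were higher for 6 receptors, with 3.79% of 9990 genes called (2.69% higher). Klrc1 was at 89.4, 69.5, 125 and 110 CPM in Cxcr6-positive cells and at 40.5, 15.6, 41.7 and 47.4 CPM in Cxcr6-negative cells, in the order of WT replicate 1, WT replicate 2, URI and GS. The ranges of Klrc1 did not overlap, and the difference was 1.36 (SE 0.10, adjusted p = 8.8e-06). Klre1 was higher by 1.01 (SE 0.11, adjusted p = 0.00015), Klrk1 by 1.00 (SE 0.10, adjusted p = 0.00013), Klrb1c by 1.00 (SE 0.16), Ncr1 by 0.81 (SE 0.15) and Klrd1 by 0.30 (SE 0.05). Klri2 (1.03, SE 0.27, adjusted p = 0.054), Styk1 (0.73), Klrb1b (0.72) and Klrb1a (0.46) did not pass. Without the URI library 3 receptors and 101 of 9985 genes were called, and Klrb1c (0.99), Klrd1 (0.34) and Ncr1 (0.77) were not. Without the GS library Klrb1c (0.86) and Klrd1 (0.32) were not called, and without the library block none was, with 1 of all 9990 genes called by edgeR there. Klrc2 was also higher in Cxcr6-positive cells, by 1.76 (SE 0.18).

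**Figure D3:**
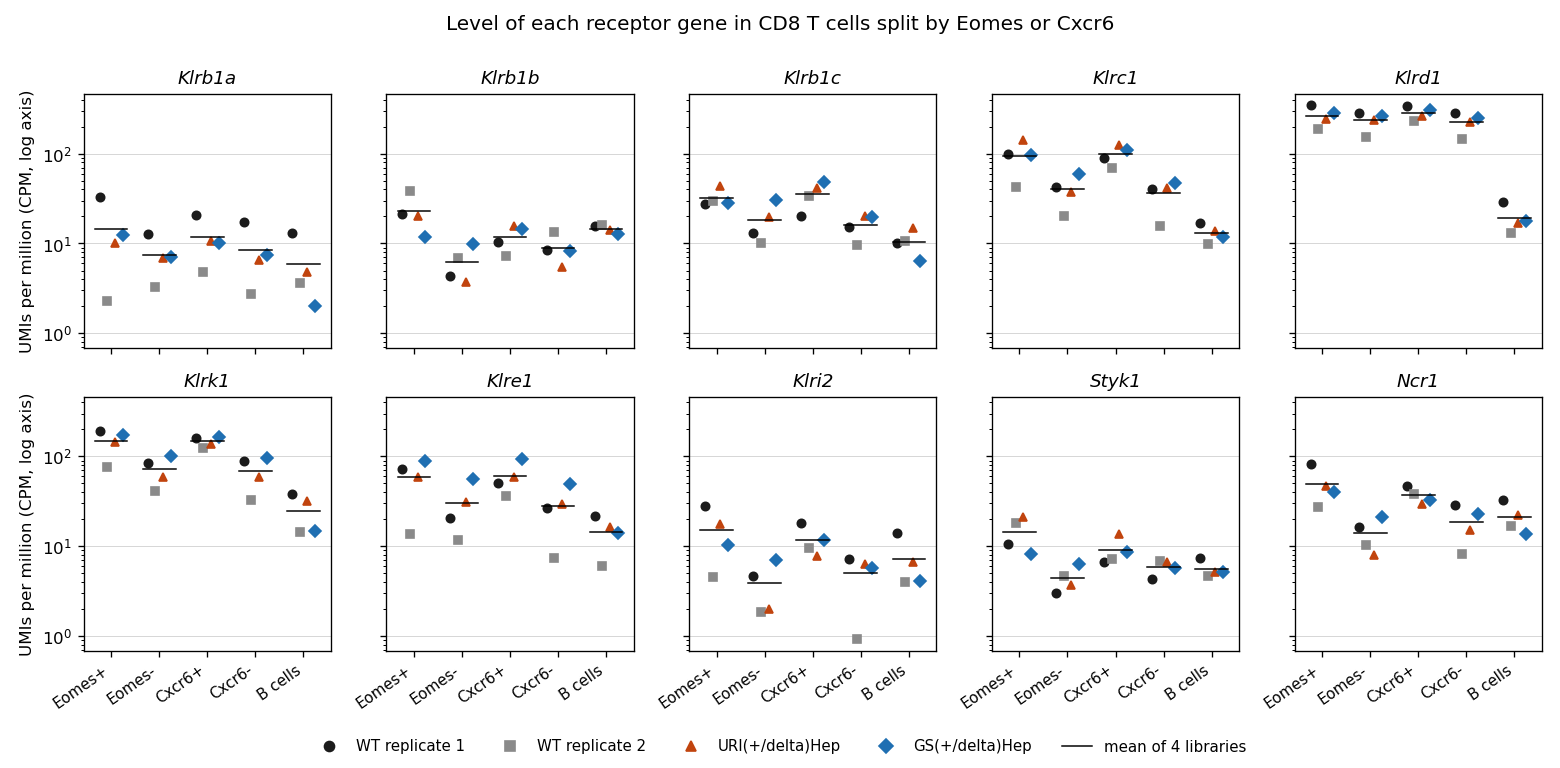
Level of each receptor gene in CPM on a log axis in CD8 T cells with and without Eomes UMIs and with and without Cxcr6 UMIs, and in B cells as background. Klrc1 and Klrk1 are higher in the positive than in the negative cells of each library, while Klrd1 lies between 146 and 345 CPM in every subset.

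The genotype comparison asked whether the deletions went with other receptor levels in liver lymphocytes. No receptor was called in the URI or the GS library against WT in any of the 4 gates. The shares of all genes called by edgeR were 0% (URI) and 0.0514% (GS) in NK cells, 0.146% and 0.119% in the ILC1 gate, 0.0461% and 0.0277% in NKT cells and 0.00883% and 0% in CD8 T cells. DESeq2 also called no receptor in any of the 8 comparisons. In NK cells the 10 receptors ran from -0.55 to 0.48 for URI, with a median of -0.06, and from -0.31 to 0.52 for GS, with a median of 0.39. Standard errors in NK cells were 0.47 to 0.56, so that a change of 2-fold was not detectable here. The spread came from the 2 WT libraries, with 1 residual degree of freedom, and each deleted genotype was assumed to vary like WT. edgeR shares the spread over all genes, so the SEs hardly followed each receptor's own gap between the WT libraries. In NK cells that log2 gap was -2.19 for Klrb1a and -0.14 for Klrb1c, with SEs of 0.54 and 0.48 for URI minus WT. For receptors with a wide WT gap these SEs can be too small. URI minus WT in NK cells was simulated on 9734 genes, with a dispersion of 0.1 for each gene and no library effect beyond depth. In that setting the test recovered 2% of genes changed 2-fold, 62% of those changed 4-fold and 96% of those changed 8-fold.

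The widest differences were for Klri2 in the ILC1 gate, with 56.4 and 39.1 CPM for the WT replicates and 152 for GS (1.63, SE 0.53, edgeR adjusted p = 0.65), and for Klrb1a in NKT cells (-1.93 in the GS library, SE 0.91, edgeR adjusted p = 1). For Klre1 in CD8 T cells, the WT replicates had 35.2 and 11.9 CPM and the GS pool 65.2 CPM (1.41, SE 0.51, edgeR adjusted p = 1). None passed. The URI and GS comparisons share their WT libraries. The fit of gate by genotype differences had no library term, so the gap between the WT libraries stayed in its residual. Its SEs for the receptors ran from 0.48 to 2.35, so an absence of calls there sets no useful limit on differences between gates. A gate by genotype difference was tested for each receptor in 12 contrasts, and edgeR called 0 of 120, with 0 at an unadjusted p under 0.05 and 0 of all genes called in any of these contrasts.

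The 2 WT libraries differed in receptor levels by more than most genes did. In NK cells 6 of the 10 receptors were over 2-fold lower in WT replicate 2 than in WT replicate 1, against 4% of the 7375 genes with a mean of at least 20 CPM. In NKT cells it was 7 of 9 receptors at that level (3.03% of genes), in the ILC1 gate 8 of 10 (9.46%) and in CD8 T cells 4 of 6 (3.67%). No receptor was over 2-fold higher in any gate, where 5.59%, 3.16%, 9.91% and 3.33% of genes were. Klrb1a had the widest gap, -2.19 in NK cells, -2.53 in the ILC1 gate and -3.97 in NKT cells on the log2 scale. In the same order of gates, Ncr1 was at -1.44, -1.97 and -2.81 and Klrd1 at -1.38, -2.15 and -2.01. Klrk1 was at -1.23 and Klrc1 at -1.20 in NK cells.

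The gap was narrower for Klrb1c, at -0.14 in NK cells, 0.14 in NKT cells and -0.87 in the ILC1 gate, and for Klrb1b, at -0.40, -0.77 and -1.23. Styk1 was higher in WT replicate 2 in NK cells (0.63) and lower in the ILC1 gate (-1.05). No test applies to 1 library against 1, and what the WT libraries differ in besides the mice is not given in the sources used here. WT replicate 2 had the lowest depth, and its cells had the highest summed level of 10 immediate early genes, among them Fos, Jun and Egr1. That sum in NK cells was 22045 CPM in WT replicate 2, 7086 in WT replicate 1, 15494 in the URI library and 13072 in the GS library. Its part in the receptor differences was not tested. Of 10 receptors, the URI library lay between the WT libraries for 8 in NK cells, 7 in the ILC1 gate, 8 in NKT cells and 5 in CD8 T cells. For the GS library the counts were 5, 6, 7 and 6. The other 5 receptors in GS NK cells were above both WT libraries and none was below. The same counts were not made over all genes.

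**Figure D4:**
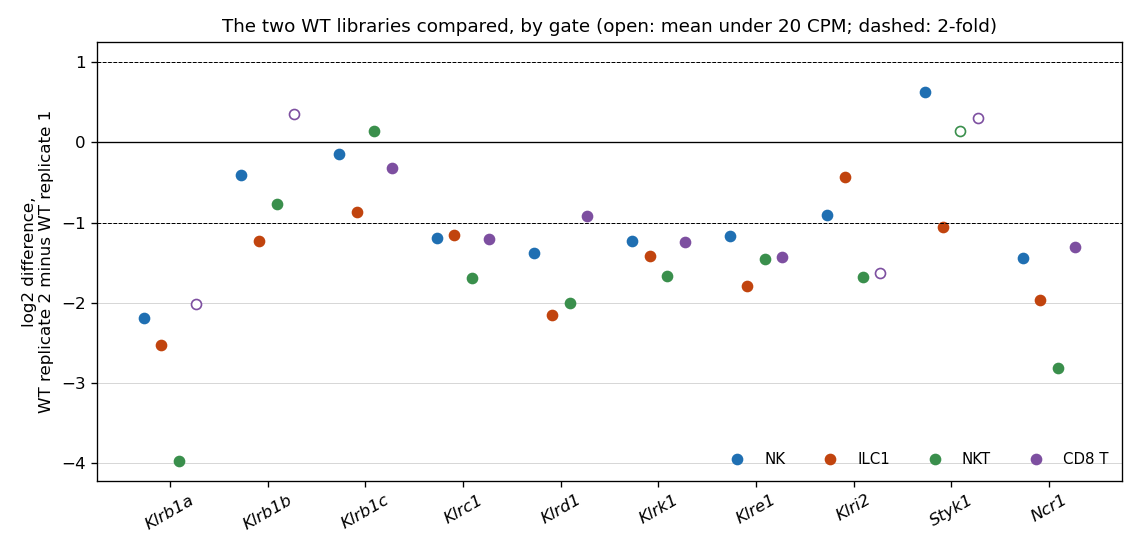
Log2 difference of each receptor between WT replicate 2 and WT replicate 1 in each gate, with open points where the mean was under 20 CPM and dashed lines at 2-fold. Most points lie below -1, and Klrb1b, Klrb1c and Styk1 hold most of the points near or above 0.

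Across the 16 sums of gate and library, the receptors rose and fell together, with Pearson r of log2 CPM between 0.52 (Klrb1c with Klrd1) and 0.97 (Klrb1a with Ncr1). These sums share libraries and gates, so r is given as a description over n = 16. Among 7741 other genes, the one most like each receptor was Klrc3 for both Klrk1 (r = 0.986) and Klrc1 (r = 0.95), Stx7 for Ncr1 (r = 0.988) and Klrb1a (r = 0.958), and Unc119 for Klrb1c (r = 0.988). For Klrb1b it was Plcg2 (r = 0.985), for Klrd1 B4galt5 (r = 0.95), for Klre1 Serpinb9 (r = 0.976), for Klri2 Tnfsf13 (r = 0.983) and for Styk1 Tnfsf12 (r = 0.989). The 4 lowest correlations between receptors all involved Klrd1.

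Cells with both Eomes and Cxcr6 UMIs and none of Cd3e, Cd8a or Zbtb16 were too few for a test, at 3 to 11 per library. In the GS, URI and WT replicate 1 libraries, with 11, 9 and 5 such cells, each of the 10 receptors had UMIs. Their Ncr1 level was 658, 968 and 1338 CPM, and their Klrb1b level 93.9, 821 and 1291 CPM. In WT replicate 2, with 3 cells, Klrb1a, Klrb1b, Klre1, Klri2 and Ncr1 were at 0, which at this number of cells sets no useful limit.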

How the data were processed

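The deposited matrices hold whole-number UMI counts per gene and barcode, without normalisation, and were made by the authors with Cell Ranger 8.0.0 against mm10, per the submitters' processing notes. Probes were hybridised to fixed RNA per the labels' protocols, so a count reports a ligated probe. Each of the 4 libraries held 24041049 to 51920505 UMIs.

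Cells were barcodes with at least 500 UMIs. Doublets stayed in the main analysis. An alternative removed the 5% of cells with the highest Scrublet scores in each library, since the automatic threshold marked 0% in WT replicate 1 and 4.64% to 4.79% in the others. Raw counts were summed per library and gate and tested with edgeR 4.0.16 (TMM, filterByExpr, quasi-likelihood test, adjusted p at 0.05 within each contrast), under limma 3.58.1 and R 4.3.3. DESeq2 1.42.0 was an alternative. The gate fits used 16 sums and a library block. Genotype fits used 4 sums with 1 residual degree of freedom. CPM divides by all UMIs of the sum. SEs are the log2 difference over the square root of the quasi-F. Shares were computed after thinning to 1000 UMIs (seed 1), and shallower cells were left out, 3 to 47 per library in the 4 gates. The ILC1 gate kept 67 of 112 cells for GS and 73 of 102 for URI. It kept 53 of 76 for WT replicate 1 and 76 of 101 for WT replicate 2. Its median depth was 1628.5 to 2732.5 UMIs, against 3017.5 to 5170 in NK cells, so its shares describe its deeper cells.

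The test was checked on simulated counts with a dispersion of 0.1 for each gene and no library effect beyond depth. The shares recovered hold for that setting and are not the power of the fits on the data. In NK minus ILC1, on 10294 genes, it recovered 18% of genes changed 2-fold, 90% of those changed 4-fold and 98% of those changed 8-fold. The fixed naming rule was all 10 receptors, the gene most like each over the 16 sums, the adaptors Tyrobp, Hcst, Fcer1g and Cd247, and up to 3 list genes per contrast by smallest adjusted p. The receptors and lists were chosen with earlier results of these data known. The immediate early genes and the alternative without B cell and neutrophil markers were chosen after seeing these data. Python 3.11.15 with numpy 2.4.6, scipy 1.17.1, pandas 2.3.3, scanpy 1.11.5 and matplotlib 3.10.9 was used.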

Additional observations from a re-analysis of the deposited data

How the results depend on the processing

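Counts of receptors called between NK cells and NKT or CD8 T cells, and between the ILC1 gate and CD8 T cells, stayed at 9 or 10 under all 14 alternatives run for each, and each genotype count stayed at 0 under 8 or 9. Without the library block the spread between libraries enters the residual, and 4 receptors were called in NK minus ILC1, 4 in ILC1 minus NKT, 6 in NKT minus CD8 T, 1 with Eomes and 0 with Cxcr6 in CD8 T cells. Over all genes, edgeR then called 1880, 1172, 2175, 106 and 1, against 2708, 1976, 4556, 1014 and 379 with the block. Gates on thinned cells left 5 calls in ILC1 minus NKT, with 431 of 9574 genes called. They turned Klrb1b in NK minus ILC1 from -0.31 to 1.56. Removing doublets left 4 calls for Eomes in CD8 T cells, while 1092 of 9666 genes were called. The cause was not tested in either case. Leaving out 1 library gave 6 to 9 calls for Eomes and 3 to 7 for Cxcr6. Over all genes, 531 to 1069 were then called for Eomes and 101 to 467 for Cxcr6. Unthinned shares were 64.1% in NK cells, 23.7% in the ILC1 gate, 16.6% in NKT cells and 4.73% in CD8 T cells, against 36%, 16.4%, 6.88% and 1.65% thinned. No paired analysis was possible because WT, URI and GS share only replicate number 1. The number of cells limits the ILC1 gate most, with 53 to 76 thinned cells per library, where 0 cells with a UMI allows a share of such cells of up to 3.95% to 5.66% and sets no limit on expression.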
